A study of Danio rerio with 9 samples.

Results

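The genes examined were the ligands and receptors of the tumour necrosis factor (TNF) families in zebrafish cells sorted for a dim cd41:GFP signal. Members were the genes whose symbol in the deposited gene lists starts with tnfrsf, tnfsf, tnfa or tnfb, with 9 genes starting with tnfaip left out, and the rule found 22 of 28958 genes. They were 12 ligands (tnfa, tnfb and 10 tnfsf genes) and 10 receptors. TNF ligands are trimeric proteins, most of them anchored in the membrane of the cell that makes them, and they act by clustering receptors on another cell. The receptors pass the signal on through TRAF adaptors to NF-kB and stress kinases, or through death domains to caspases. In blood they are known for inflammatory signalling by macrophages and neutrophils and for costimulation of lymphocytes, and in zebrafish embryos TNF signalling has been linked to the emergence of blood stem cells.

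The cells came from 9 libraries of the EK strain, all carrying the cd41:GFP transgene, in which dim cells include blood stem and progenitor cells and bright cells are thrombocytes. The 5 runx1-/- libraries (allele labelled del8, hg96) came from 2.5, 6 and 10 days post fertilization (dpf) and from 16 dpf, where 1 library is labelled bloodless and 1 recovered, and the 4 WT libraries came from 2.5, 6, 10 and 16 dpf. Each group was 1 library, and neither the number of animals in it nor the meaning of bloodless and recovered is given in the labels. A difference within 1 age therefore had no replicate. Tests over all ages treated the ages as repeats, so p-values measure the spread between these libraries, estimated in part over all genes. The bloodless and recovered libraries both counted as runx1-/- and were both set against the 1 WT library of 16 dpf. In the genotype tests the spread thus holds changes of the genotype fold between ages and the difference between bloodless and recovered, and not that of replicates.

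After filtering, 28875 cells were kept, 762 to 7185 per library, with 5113103 to 85795962 unique molecular identifiers (UMIs). In all, 112 cell barcodes occurred in more than 1 library. The smallest runx1-/- library (6 dpf) and the WT library of that age shared 22 of them, 21 with more UMIs in runx1-/-, and the member results were also computed without shared barcodes. The transcript of runx1 was counted at 0.250, 9.78, 4.05, 1.5 and 1.34 CPM (UMIs of a gene per 1000000 UMIs of the library) in runx1-/- at 2.5, 6, 10, 16 (bloodless) and 16 dpf (recovered), against 0.0366, 1.89, 1.95 and 0.701 CPM in WT at 2.5, 6, 10 and 16 dpf. These tags from transcript ends do not show whether a transcript carried the deletion, so they do not check the labels. Of the 22 members, 20 have the same identifier at all ages. The symbols tnfsf14 and tnfsf18 stand for other identifiers in the 2.5 dpf gene list, so they were compared from 6 dpf on.

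Cells were placed in classes by marker genes, none of them a member: a cell needed UMIs of at least 3 markers of a class and a larger share of its markers than of any other class. The hematopoietic stem and progenitor cell (HSPC) gate took 7999 cells, the erythroid gate 6103, the neutrophil gate 1719 and the macrophage gate 483. Smaller blood gates were those for thrombocytes (206 cells), T lymphoid cells (70), NK cells (68), cells with genes of the si:dkey-21e2 cluster (37) and cells with s1pr4 and spock3 (69), and the B lymphoid gate took 0 cells. Sorted cells also fell into epidermal (1641), germ cell (1167), neuron (409), mesenchyme (247) and cartilage (214) gates, so the sort was not limited to blood. No gate took 8384 cells (29.0%), which are called ungated. Of the gated cells 3988 stood at exactly 3 markers, and 3928 ungated cells had 2.

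The 22 members together had 40442 UMIs, 0.0115% of all UMIs kept. The receptor tnfrsf9a, a fish copy of the lymphocyte costimulatory receptor CD137, gave 17604 UMIs, 43.5% of that total. It was followed by the ligand tnfb with 5762 UMIs, the second CD137-like receptor tnfrsf9b with 2854, the broadly acting TNF receptor tnfrsf1a with 2792 and the death-domain receptor tnfrsf21 with 1657. Between 1539 and 113 UMIs came from each of 15 others, and tnfsf10l3 (32 UMIs) and tnfsf13 (8 UMIs) were close to undetected. These are counts of tags from transcript ends, which do not depend on transcript length, but capture can differ between genes.

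**Figure D1:**
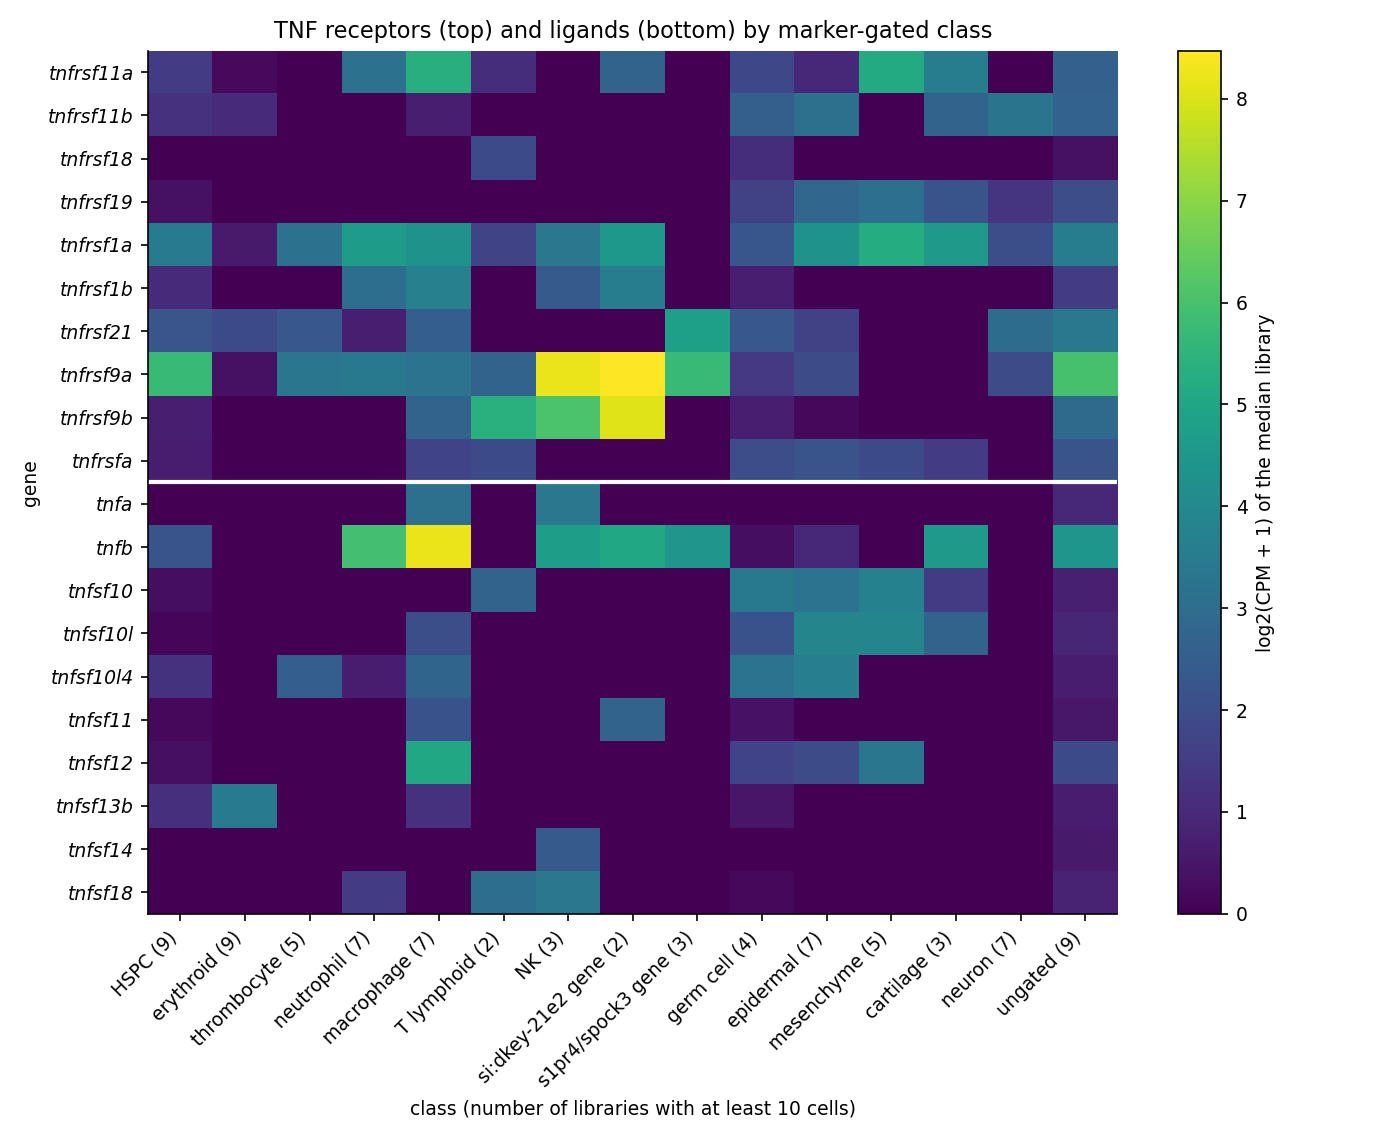
Level of each member with at least 100 UMIs in each marker-gated class, as log2(CPM + 1) of the median library; columns name the class with the number of libraries that had at least 10 cells of it, and the white line separates receptors from ligands. The highest medians are those of tnfrsf9a and tnfrsf9b in the NK and si:dkey-21e2 columns and of tnfb in macrophages.

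Macrophage-gated cells had the widest set of members. For each library the class was set against the other gated cells of the same library, and the quasi-likelihood test of edgeR was run over all genes, with p-values adjusted by the Benjamini-Hochberg method. Of 18 members tested, 9 were higher and 1 lower in macrophages (percent of all 13631 genes called: 13.6% higher, 27.8% lower), with a median log2 fold of 1.87 over the members tested and -0.50 over all genes. The ligand tnfa, the classical inflammatory TNF, was higher by a log2 fold of 6.49 (SE 0.833, adjusted p 1.09e-04) in 7 of 7 libraries, and held 56.4% of its UMIs there. The TWEAK gene tnfsf12 was higher by 5.49 (SE 0.453, adjusted p 4.48e-06), and the second TNF ligand tnfb by 4.70 (SE 0.476, adjusted p 1.79e-05), each in 7 of 7 libraries.

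Both sides of the RANK pathway, which in mammals drives osteoclast formation, were also higher in macrophages. The receptor tnfrsf11a was higher by a log2 fold of 4.19 (SE 0.286, adjusted p 1.64e-06, 7 of 7 libraries) and its ligand tnfsf11 by 4.95 (SE 0.858, adjusted p 0.00127, 5 of 7 libraries), although tnfsf11 had 127 UMIs in all. The 2 TNF receptors tnfrsf1a and tnfrsf1b were higher by 1.53 (SE 0.429, adjusted p 0.0151) and 3.57 (SE 0.451, adjusted p 9.38e-05). The CD137-like tnfrsf9b (2.42, SE 0.695, adjusted p 0.0170) and tnfrsf18 (4.21, SE 1.26, adjusted p 0.0241), which encodes the lymphocyte receptor GITR, were higher too. The tnfrsf9b call was lost without WT at 16 dpf, and the tnfrsf18 call without either runx1-/- library of 16 dpf. In WT at 16 dpf the gate had more CPM of T lymphoid and of epidermal markers than of macrophage markers, as given below. Most of that T lymphoid sum came from the chemokine receptor gene ccr9a. The lower member was tnfrsf19, a receptor of neural and epithelial cells, which had 1 UMI in the gate (adjusted p 0.0130), and this call was lost without runx1-/- at 2.5 dpf.

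Neutrophil-gated cells shared the TNF receptors and tnfb with macrophages. There 4 of 18 members were higher and 6 lower (all 15223 genes: 16.5% higher, 40.7% lower; median log2 fold -1.34 over members and -0.65 over all genes). The higher members were tnfb (log2 fold 3.55, SE 0.627), tnfrsf1b (3.08, SE 0.511), tnfrsf1a (2.22, SE 0.344) and tnfrsf11a (1.70, SE 0.415), with adjusted p from 3.22e-04 for tnfrsf1a to 0.00508 for tnfrsf11a. By contrast tnfa was not called in neutrophils (0.62, SE 0.801).

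NK-gated cells, with at least 10 cells in 3 WT libraries only, had 3 of 11 members higher and 0 lower (all 10876 genes: 2.90% higher, 6.86% lower). Levels of tnfrsf9a were 295, 206 and 599 CPM at 6, 10 and 16 dpf, a log2 fold of 3.53 over the other gated cells (SE 0.354, adjusted p 6.92e-21). Levels of tnfrsf9b were 66.6, 38.7 and 92.2 CPM, a log2 fold of 3.19 (SE 0.534, adjusted p 1.75e-07). The third was tnfa at 0, 34.4 and 9.22 CPM (6.13, SE 1.17, adjusted p 7.80e-06), a call that rests on 9 UMIs in all NK-gated cells. The gate held 15, 33 and 15 cells in WT at 6, 10 and 16 dpf. In them T lymphoid markers summed to 1999, 2260 and 4065 CPM, beside 1875, 2991 and 4176 CPM for NK markers. The marker sums thus do not set these cells apart from cells with T lymphoid markers. The fit of these 3 libraries left 2 residual degrees of freedom, and edgeR shares its estimate of the spread over genes. Such small p-values thus do not measure the spread of 1 gene between 3 libraries.

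In erythroid-gated cells the families were nearly silent: 16 of 18 members were lower and 1 higher (all 17094 genes: 46.8% lower, 16.6% higher; median log2 fold -4.41 over members and -0.70 over all genes). The lower members tnfrsf18 and tnfsf11 had 0 UMIs in the gate, and with these 2 set at a floor of 3 counts the median was -4.40. The exception was tnfsf13b, which encodes BAFF, the survival factor of mammalian B cells. It had 77.5% of its UMIs in the erythroid gate and was higher by a log2 fold of 3.07 (SE 0.352, adjusted p 1.82e-06, 8 of 9 libraries). Its erythroid level was 0, 13.5, 10.0, 8.72 and 11.6 CPM in runx1-/- (2.5, 6, 10 dpf, bloodless, recovered) and 2.52, 2.89, 14.9 and 10.5 CPM in WT (2.5, 6, 10, 16 dpf). The receptor tnfrsf21 was the member not called there, at 1.5 to 3.65 CPM in runx1-/- and 1.73 to 7.34 CPM in WT.

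HSPC-gated cells had 2 of 18 members higher and 4 lower (all 16684 genes: 14.0% higher, 20.8% lower). The receptor tnfrsf9a was higher by a log2 fold of 2.82 (SE 0.757, adjusted p 0.0116, 7 of 9 libraries), and the gate held 49.2% of its UMIs. That call was lost without either runx1-/- library of 16 dpf (adjusted p 0.0557 without bloodless, 0.0508 without recovered) and against all other kept cells (1.32, adjusted p 0.0544). The other, tnfrsf1a (1.07, SE 0.361, adjusted p 0.0341), was higher in 5 of 9 libraries and kept its call in 6 of 20 alternatives. The lower members were tnfa, tnfsf12 and the TRAIL-like death ligands tnfsf10 and tnfsf10l.

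Outside blood, TRAIL-like ligands and several receptors were called higher. The blood gates held some of their UMIs too, among them 22.4% of tnfsf10l4 in the HSPC gate and 9.55% and 9.63% of tnfrsf11b in the HSPC and erythroid gates. Epidermal cells had 7 of 17 members higher and 1 lower (all 14535 genes: 11.8% higher, 17.5% lower), led by tnfsf10l (log2 fold 4.26, SE 0.774, adjusted p 0.00165), tnfsf10l4 (3.38, SE 0.622, adjusted p 0.00180), tnfrsf19 (2.78, SE 0.756, adjusted p 0.0164) and the decoy receptor for RANK ligand, tnfrsf11b (2.53, SE 0.747, adjusted p 0.0235). Germ cells had 3 of 19 members higher and 9 lower (all 18262 genes: 31.6% higher, 28.3% lower), and the 3 were TRAIL-like: tnfsf10 (3.36, SE 0.586, adjusted p 5.65e-04), tnfsf10l3 (3.12, SE 0.895, adjusted p 0.0106) and tnfsf10l4 (1.91, SE 0.729, adjusted p 0.0397). In mesenchyme 1 of 15 members was higher, tnfrsf11a (2.24, SE 0.681, adjusted p 0.0288), and 1 lower, tnfb (all 13384 genes: 6.74% higher, 12.4% lower). The epidermal tnfrsf11b call was lost without either 6 dpf library, tnfrsf19 without WT at 2.5 dpf, the germ cell tnfsf10l3 call without the bloodless library, tnfsf10l4 without runx1-/- at 10 dpf or the recovered library, and the mesenchyme call without any 1 of the 3 libraries of 16 dpf.

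Among thrombocytes 2 of 14 members were lower, tnfb and tnfrsf9a, and 0 higher (all 12686 genes: 9.76% lower, 2.40% higher). The tnfrsf9a value, a log2 fold of -1.19, turned to 0.41 with a gate of 4 markers (adjusted p 0.737), and DESeq2 called tnfb alone. Neurons had 5 of 11 members lower and 0 higher (all 13966 genes: 21.2% lower, 15.9% higher). In cartilage (12 members tested, 1 at an unadjusted p under 0.05; 11% of 11373 genes called) and in the s1pr4 and spock3 class (15 tested, 3 at an unadjusted p under 0.05; 5.85% of 13269 genes called) 0 members passed edgeR's test, and DESeq2 called 0 in either.

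Levels of tnfrsf9b were highest in the small si:dkey-21e2 class, which is named by its genes and by no cell type. In cells with genes of the si:dkey-21e2 cluster it reached 215 CPM in WT at 6 dpf and 315 CPM in WT at 16 dpf, from 15 and 11 cells. T lymphoid cells had 20.7 CPM in WT at 6 dpf and 61.0 CPM in WT at 16 dpf, from 29 and 20 cells. Macrophage levels were 0, 5.50 and 14.3 CPM in runx1-/- (2.5 dpf, bloodless, recovered) and 2.35, 0, 14.1 and 32.0 CPM in WT (2.5, 6, 10, 16 dpf). Erythroid cells were at 0 CPM in 8 of 9 libraries, with 0.273 CPM in WT at 16 dpf.

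Most tnfrsf9b UMIs (71.8%) nevertheless came from ungated cells, and 15.5% from the HSPC gate. Cells with a tnfrsf9b UMI were compared with the cells without one in the same library, for genes chosen after their values were seen and therefore without a test. In the bloodless library 32 such cells had 1719 CPM summed over the T lymphoid markers, against 90.0 CPM in the other cells, and in the recovered library 41 cells had 2089 against 62.1 CPM. In WT the values were 765 against 177 CPM at 2.5 dpf (25 cells), 2690 against 466 at 6 dpf (91 cells), 2118 against 809 at 10 dpf (168 cells) and 1395 against 675 at 16 dpf (698 cells). Most of this sum was ccr9a, a chemokine receptor of developing T cells, at 1654 of the 1719 CPM in the bloodless library and 1386 of the 1395 CPM in WT at 16 dpf.

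The same cells had more of the type 2 cytokine gene il13, at 292 against 0.402 CPM in the bloodless library, 109 against 3.56 CPM in the recovered library and, in WT, 55.2 against 2.41 CPM at 6 dpf, 28.1 against 2.37 at 10 dpf and 25.8 against 0.722 at 16 dpf. For gata3, a regulator of T helper and innate lymphoid cells, the values were 27.9 against 1.94 CPM in the bloodless library, 25.1 against 0.538 in the recovered library, and 53.9 against 3.70, 38.4 against 1.91 and 13 against 0.953 CPM in WT at 6, 10 and 16 dpf. HSPC markers were lower in these cells, at 279 against 453 CPM in the bloodless library, 397 against 630 in the recovered library and 235 against 637, 477 against 950 and 296 against 436 CPM in WT at 6, 10 and 16 dpf. At 2.5 dpf il13 was at 0 against 2.22 CPM.

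Across 83 sums of a class in a library, the 5 genes whose log2(CPM + 1) followed tnfrsf9b most closely among 16374 genes were BX120005.1 (Pearson r 0.77), ccr9a (0.72), the Fc receptor subunit gene fcer1g (0.71), the TRAF adaptor gene traf1 (0.71) and mfsd6b (0.70). These sums share libraries and depth, and ccr9a is a marker of the T lymphoid gate, so the values are a description. The member most like it was tnfrsf9a (r 0.56, rank 60).

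**Figure D2:**
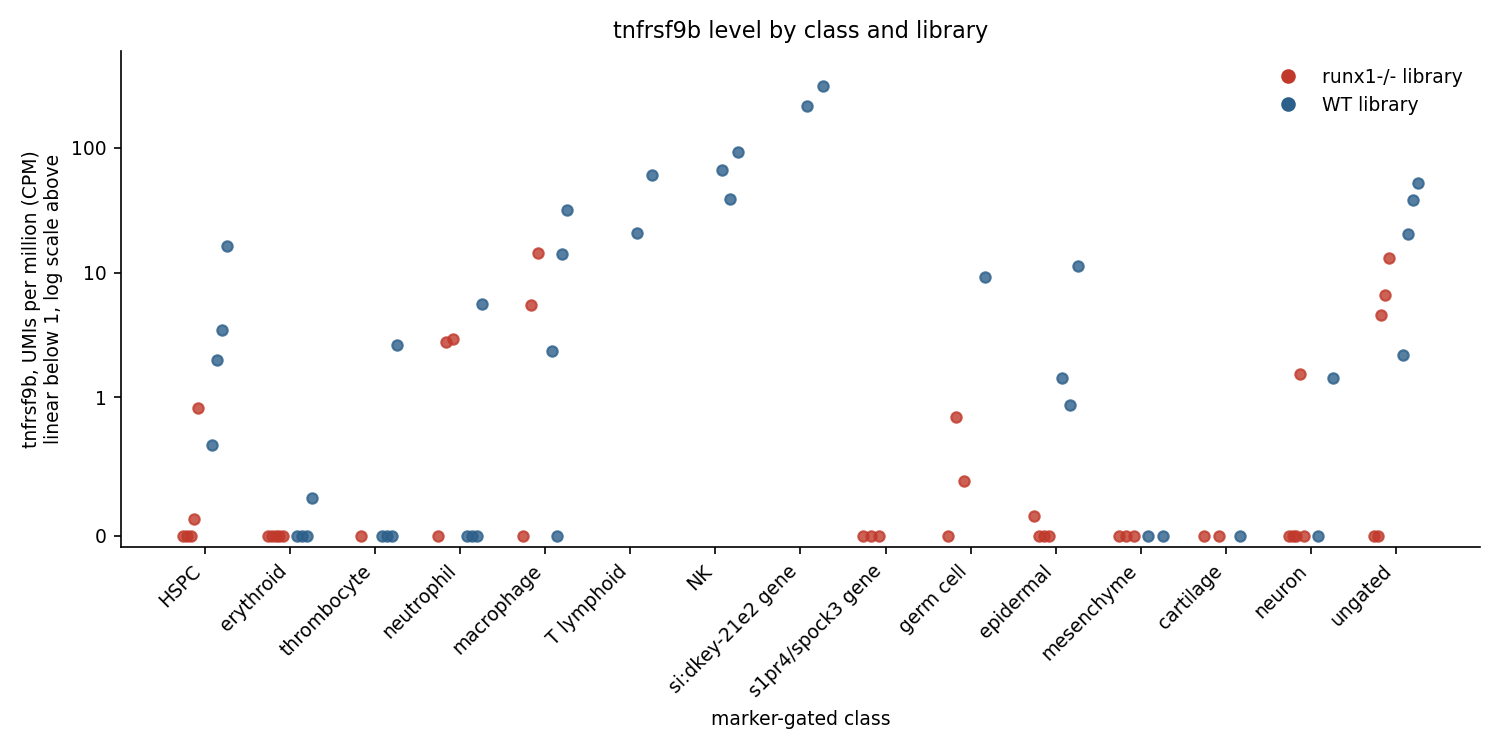
Level of tnfrsf9b in CPM (linear below 1, log scale above) in each class and library with at least 10 cells of the class; red points are runx1-/- libraries and blue points WT libraries. The T lymphoid, NK and si:dkey-21e2 classes had enough cells in WT only. In the HSPC column the WT value at 16 dpf (16.3 CPM) lies above all others.

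Over all kept cells, tnfrsf9b was lower in every runx1-/- library than in WT of its age. It stood at 0.0834, 0, 0.480, 1.15 and 1.49 CPM in runx1-/- (2.5, 6, 10 dpf, bloodless, recovered), from 1, 0, 16, 52 and 128 UMIs, and at 1.13, 6.59, 14.5 and 25.2 CPM in WT (2.5, 6, 10, 16 dpf), from 31, 240, 409 and 1977 UMIs. The highest runx1-/- value lay above the WT value of 2.5 dpf and below those of the later ages. Within an age it was 13.6-fold lower at 2.5 dpf (counting interval 2.26 to 554), at least 11.2-fold lower at 6 dpf (against a floor of 3 counts in runx1-/-), 30.2-fold lower at 10 dpf (18.4 to 53.4), 22.0-fold lower in bloodless (16.7 to 29.5) and 16.9-fold lower in recovered animals (14.1 to 20.4). These intervals are at 95% and cover counting error only.

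**Figure D3:**
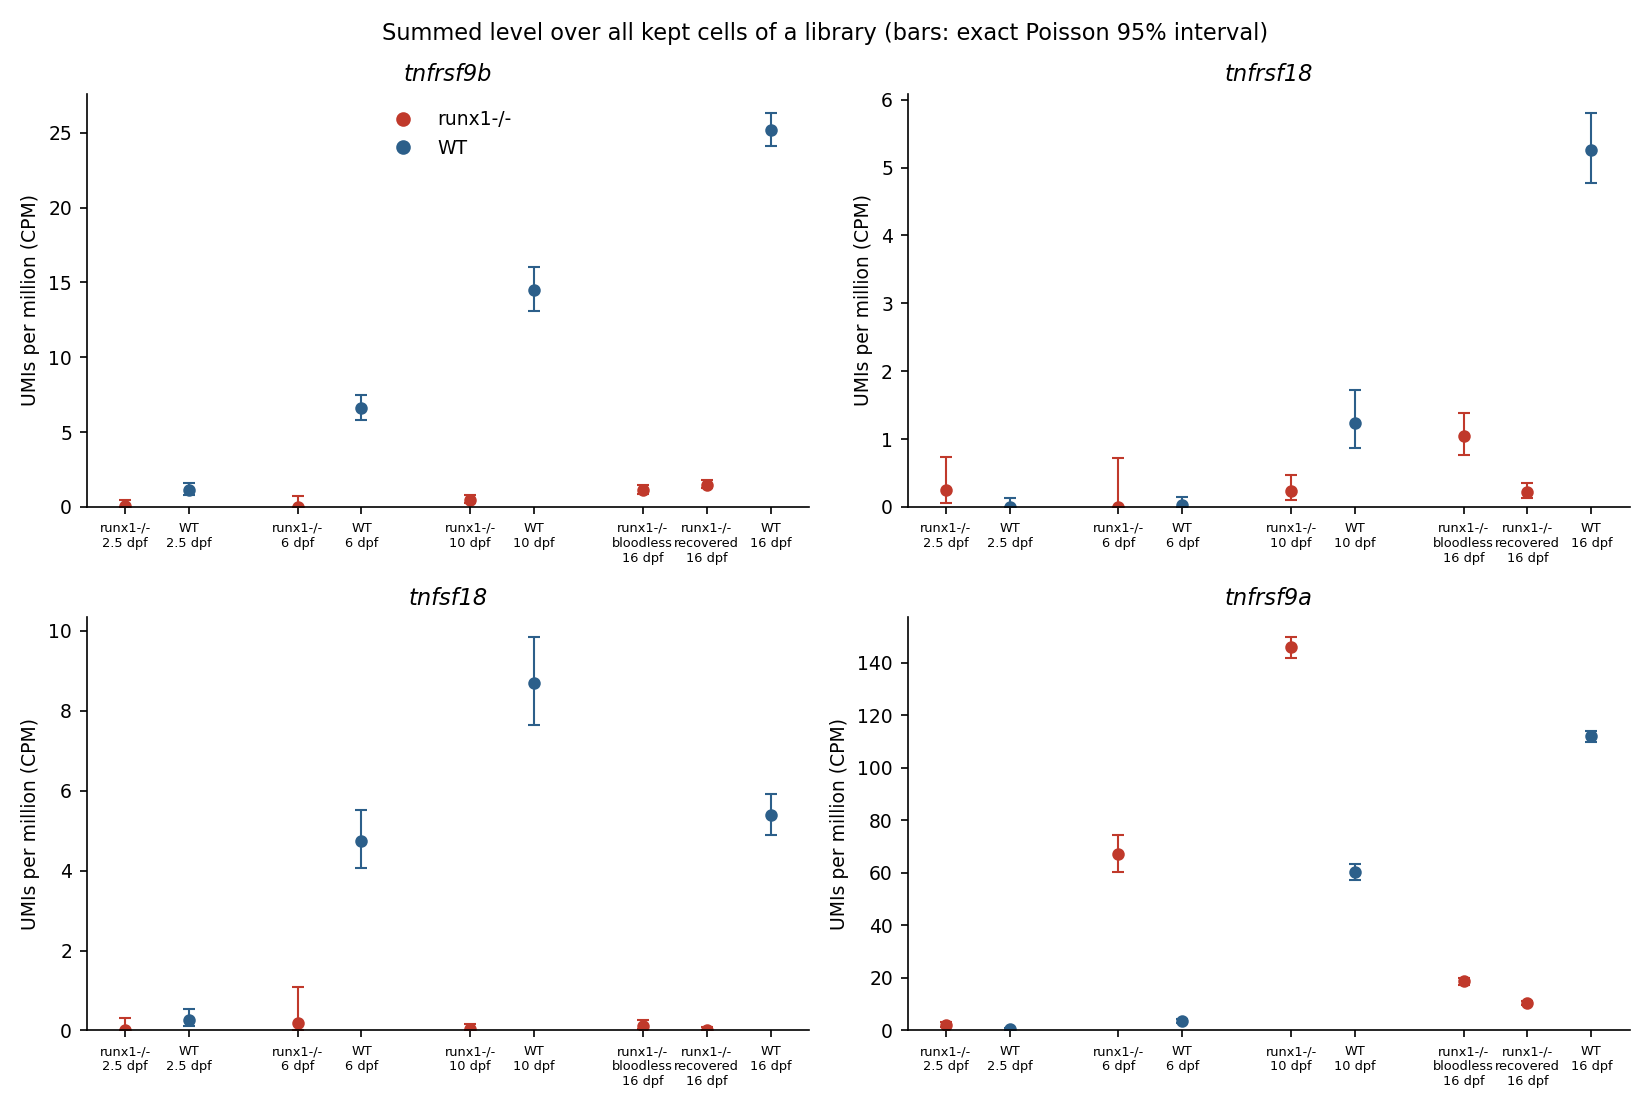
Summed CPM of 4 members over all kept cells of each library, with exact Poisson 95% intervals; red points are runx1-/- and blue points WT, ordered by age. WT points of tnfrsf9b stand above those of runx1-/- at each age, whereas tnfrsf9a is higher in runx1-/- up to 10 dpf and higher in WT at 16 dpf.

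With age as a factor, genotype called 1 of the 18 members tested over all cells. This was tnfrsf9b, which fell by 5.01 on the log2 scale (SE 0.532, adjusted p 0.00762 in the quasi-likelihood test of edgeR), 32.3-fold, lower in 5 of 5 runx1-/- libraries. The call held in all 17 alternatives run, with log2 folds from -5.44 to -4.70. Of all 18183 genes tested, 0.819% were called lower and 0.555% higher, and the median log2 fold was 0.36 over the members tested and 0.08 over all genes. The death-domain receptor tnfrsf21 was next, at a log2 fold of 1.23 (SE 0.301, adjusted p 0.0817), higher in 5 of 5 libraries, which did not pass. DESeq2 called it (1.25, SE 0.333, adjusted p 0.00522) and also tnfrsf11b (1.66, SE 0.544, adjusted p 0.0338). Levels of tnfrsf21 were 8.18, 17.4, 12.9, 5.84 and 3.46 CPM in runx1-/- and 2.63, 2.69, 5.67 and 1.89 CPM in WT.

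Summed markers of other cell types moved with genotype in the same direction as tnfrsf9b. The 10 T lymphoid markers summed to 23.3 to 109 CPM in runx1-/- libraries and 184 to 882 CPM in WT libraries. In cells without a tnfrsf18 UMI, which were most cells, ccr9a gave 871 of the 880 CPM in WT at 10 dpf. It gave 746 of 753 CPM in WT at 16 dpf, 82.0 of 102 in the bloodless and 62.5 of 68.8 in the recovered library. In these libraries the sum was thus largely the level of ccr9a. The part of the sum outside ccr9a was larger in the bloodless library than in either of these WT libraries. In the recovered library it was of about the same size as in WT. The lower sum in runx1-/- at 16 dpf was therefore that of ccr9a and not of the other T lymphoid markers together. The si:dkey-21e2 genes summed to 0 to 25.8 CPM in runx1-/- and 6.58 to 433 CPM in WT. That list was taken from earlier results of these data, so its direction is no independent observation. In sums of this kind, fewer cells of a type and less RNA per cell cannot be told apart, and the part of these cells in the tnfrsf9b result was not tested.

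From 6 dpf on, with the later gene list that holds tnfsf14 and tnfsf18, 4 of 20 members fell and 0 rose in the 4 runx1-/- libraries against 3 WT libraries (all 18089 genes: 1.44% lower, 0.697% higher). The ligand tnfsf18, which encodes the partner of GITR, was at 0.196, 0.0300, 0.110 and 0.0233 CPM in runx1-/- (6, 10 dpf, bloodless, recovered), from 1, 1, 5 and 2 UMIs, and at 4.75, 8.69 and 5.38 CPM in WT (6, 10, 16 dpf). No runx1-/- value came near a WT value, and the log2 fold was -7.07 (SE 0.568, adjusted p 0.00307). Per age it was 24.3-fold lower at 6 dpf (4.30 to 964), 290-fold lower at 10 dpf (51.5 to 11488), 48.8-fold lower in bloodless (20.7 to 151) and 231-fold lower in recovered animals (63.5 to 1912).

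The receptor tnfrsf18 itself was at 0, 0.240, 1.04 and 0.221 CPM in runx1-/- and at 0.0274, 1.24 and 5.26 CPM in WT, a log2 fold of -3.29 (SE 0.642, adjusted p 0.0425). In WT it was near 0 at 6 dpf and highest at 16 dpf, so the groups overlap across ages. The LIGHT gene tnfsf14, a costimulatory ligand of T cells in mammals, was at 0, 0.0600, 0.110 and 0.0233 CPM in runx1-/- and 0.192, 0.887 and 0.918 CPM in WT (-4.30, SE 0.785, adjusted p 0.0365). Both calls were lost without barcodes shared by libraries (adjusted p 0.0596 for tnfrsf18 and 0.0520 for tnfsf14) and without either runx1-/- library of 16 dpf, and that of tnfrsf18 also without either library of 10 dpf. In this fit tnfrsf9b fell by 5.10 (SE 0.527, adjusted p 0.00643), and without the bloodless library its adjusted p was 0.0778.

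Cells with a tnfsf18 UMI numbered 115, 172 and 316 in WT at 6, 10 and 16 dpf, and their other genes, chosen after their values were seen, are given with no test. The si:dkey-21e2 genes summed to 34.8, 9.71 and 0.762 CPM in them, against 451, 230 and 288 CPM in the cells without a tnfsf18 UMI. In cells with a tnfrsf9b UMI the same genes summed to 7696, 2414 and 1838 CPM, against 271, 86.2 and 65.4 CPM in the cells without one. Thus this gene cluster was low in cells with the ligand tnfsf18 and high in cells with the receptor tnfrsf9b. T lymphoid markers in the tnfsf18 cells summed to 1601 against 466 CPM at 6 dpf and 1078 against 868 CPM at 10 dpf. At 16 dpf they summed to 608 against 768 CPM, so the difference in this sum turned over with age. Most of each sum in the tnfsf18 cells was ccr9a, at 1577, 1062 and 599 CPM. Against 455, 860 and 760 CPM in the cells without a tnfsf18 UMI, ccr9a turned over in the same way. The receptor tnfrsf9a was at 0 against 3.67 CPM, 128 against 55.5 CPM and 259 against 104 CPM in the same comparison. The s1pr4 and spock3 genes were the only blood marker list higher in the tnfsf18 cells at each age. They summed to 169 against 9.17, 57.7 against 11 and 29.5 against 19.2 CPM. In the HSPC gate from 6 dpf on these genes were higher in runx1-/-, where tnfsf18 had no UMIs, as given below.

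Cells with a tnfrsf18 UMI numbered 24 (bloodless) and 15 (recovered) in runx1-/-, against 15 and 94 in WT at 10 and 16 dpf. Macrophage markers summed in them to 2148 against 199 CPM in the bloodless and 2671 against 51.7 CPM in the recovered library. In WT the same sums were 31.1 against 38.2 CPM at 10 dpf and 151 against 24.3 CPM at 16 dpf. Summed T lymphoid markers were higher in these cells in all 4 libraries. The sums were 1152 against 102, 898 against 68.8, 1407 against 880 and 1156 against 753 CPM in the same order. Most of each sum in these cells was ccr9a, at 1108, 855, 1384 and 1141 CPM, so it is largely the level of 1 gene. NK markers were higher in these cells too, at 60.5 against 10.6, 63.4 against 4.71, 85.5 against 61.5 and 54.9 against 24.7 CPM. So were the s1pr4 and spock3 genes, at 420 against 117, 195 against 37.9, 70.0 against 13.9 and 54.1 against 19.2 CPM. In WT at 10 dpf these values rest on 11 and 9 UMIs in the cells with tnfrsf18.

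In the GRCz12tu assembly of RefSeq, tnfsf14 and tnfsf18 are neighbouring genes, as are tnfb and lta.

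The receptor tnfrsf9a changed its order between genotypes with age. It stood at 2.09, 67.1, 146, 18.7 and 10.5 CPM in runx1-/- (2.5, 6, 10 dpf, bloodless, recovered) and at 0.439, 3.51, 60.3 and 112 CPM in WT (2.5, 6, 10, 16 dpf). It was thus 4.75-fold (2.30 to 10.4), 19.1-fold (15.5 to 23.6) and 2.41-fold (2.28 to 2.55) higher in runx1-/- at 2.5, 6 and 10 dpf, and 5.99-fold (5.58 to 6.44) and 10.6-fold (9.92 to 11.4) lower in the bloodless and recovered libraries. Its genotype log2 fold over all ages was 0.18 (SE 1.12, adjusted p 0.947).

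In HSPC-gated cells tnfrsf9a kept this order, at 4.44, 135, 285, 53.0 and 29.8 CPM in runx1-/- and 0.219, 1.19, 56.3 and 125 CPM in WT. It was 114-fold higher at 6 dpf (68.8 to 202) and 5.07-fold higher at 10 dpf (4.67 to 5.50), and 2.37-fold (2.14 to 2.63) and 4.21-fold (3.78 to 4.70) lower in the bloodless and recovered libraries. Cells with a tnfrsf9a UMI, again compared with no test, had more HSPC markers than the rest in runx1-/- from 6 dpf on, at 1697 against 895, 1500 against 824, 1053 against 411 and 1038 against 617 CPM (6, 10 dpf, bloodless, recovered). In WT they had fewer, at 314 against 566, 352 against 632, 682 against 958 and 384 against 430 CPM (2.5, 6, 10, 16 dpf). In runx1-/- at 2.5 dpf, with 16 such cells, the sums were 306 and 300 CPM.

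A genotype effect that moves with age was fitted as an interaction with log2 age: tnfrsf9a had -2.33 (SE 1.39, adjusted p 0.681), and edgeR called 0 of 18 members and 0 of 18183 genes (0% called), with 5 members and 1634 genes at an unadjusted p under 0.05. The interaction was fitted with edgeR alone. Among the 5 the lowest adjusted p was 0.372, for tnfrsf18 (-4.10, SE 1.06).

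HSPC-gated cells gave 4 calls among 13 members tested, 3 higher and 1 lower in runx1-/- (all 12489 genes: 5.96% higher, 4.35% lower; median log2 fold 0.93 over members and -0.07 over all genes). The gate held 30 cells in runx1-/- at 2.5 dpf, so a value of 0 in that library says little. The lower member was tnfrsf9b, at 0, 0, 0, 0.124 and 0.924 CPM in runx1-/- and 0.656, 2.0, 3.49 and 16.3 CPM in WT (log2 fold -5.61, SE 0.685, adjusted p 7.62e-04). It was at least 16.8-fold lower at 10 dpf and 17.6-fold lower in the recovered library (9.95 to 34.4).

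The ligand tnfb was at 0, 3.91, 15.2, 15.0 and 6.31 CPM in runx1-/- and 0.656, 0.445, 3.57 and 1.61 CPM in WT. All 4 runx1-/- libraries from 6 dpf on lay above every WT library, and the log2 fold was 1.97 (SE 0.408, adjusted p 0.0114). The call was lost without either library of 10 dpf (2.04, adjusted p 0.0854) and with a gate of 2 markers (0.71, adjusted p 0.422) or 4 markers (2.29, adjusted p 0.0527). The RANK receptor gene tnfrsf11a was at 0, 7.33, 6.01, 7.31 and 5.85 CPM in runx1-/- and 0.219, 0.519, 1.86 and 1.06 CPM in WT. It was thus even across the 4 later runx1-/- libraries and above all WT libraries in each of them, with a log2 fold of 2.05 (SE 0.419, adjusted p 0.0107).

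The third higher member, tnfrsf21, was at 0, 14.7, 19.8, 6.81 and 3.70 CPM in runx1-/- and 2.63, 1.71, 4.70 and 1.52 CPM in WT (1.53, SE 0.413, adjusted p 0.0384). The recovered library lay below WT at 10 dpf, so the groups overlap. This call was lost in 7 of 19 alternatives, among them those without either library of 6 dpf (1.31, adjusted p 0.128), without either library of 10 dpf (1.38, adjusted p 0.243) and without the bloodless library (1.45, adjusted p 0.108). Not past the threshold was tnfsf10l4, lower in 5 of 5 libraries (-1.93, SE 0.598, adjusted p 0.0658).

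**Figure D4:**
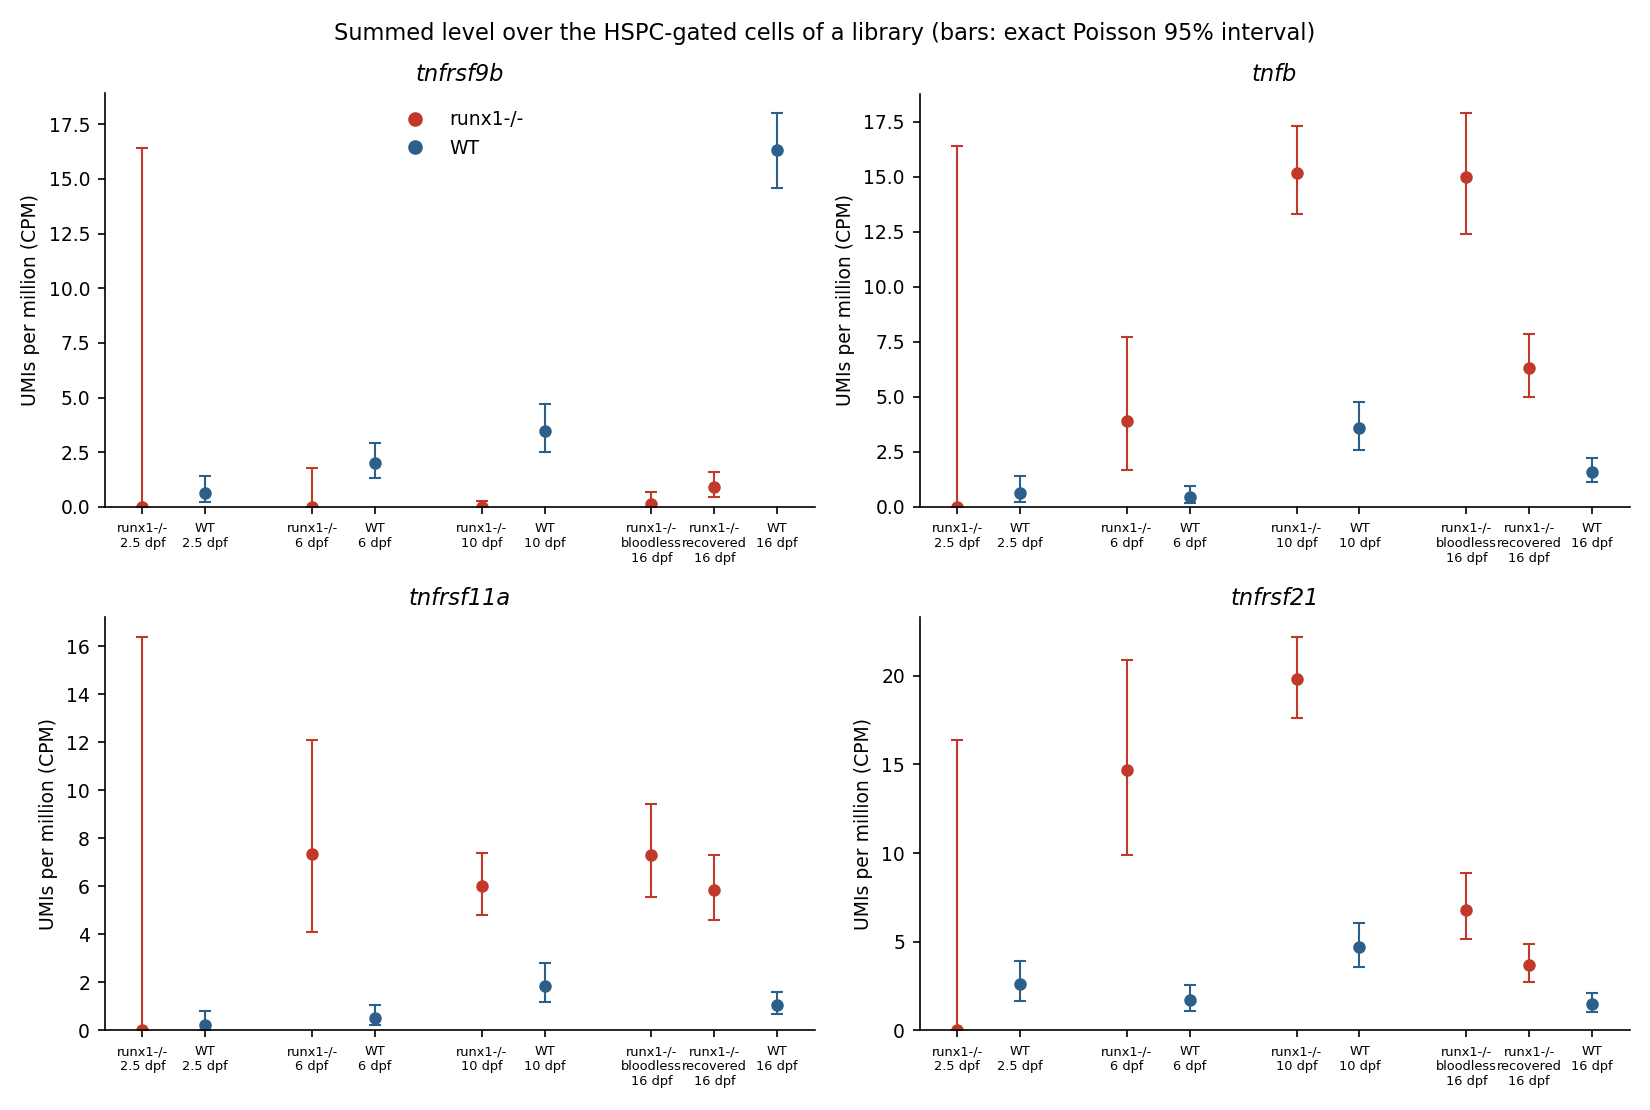
Summed CPM over the HSPC-gated cells of each library for the 4 members called by genotype there, with exact Poisson 95% intervals; red points are runx1-/- and blue points WT. The wide intervals at 2.5 dpf in runx1-/- reflect 30 cells, and from 6 dpf on tnfb and tnfrsf11a lie higher in runx1-/- and tnfrsf9b higher in WT.

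Markers of other cells also moved with genotype inside the HSPC gate. Endothelial markers summed to 30.0 to 182 CPM in runx1-/- and 4.01 to 11.9 CPM in WT. In the same order HSPC markers summed to 1196 to 1925 and 650 to 1079 CPM, and T lymphoid markers to 4.44 to 77.3 and 55.7 to 468 CPM. In WT at 10 and 16 dpf most of that T lymphoid sum was ccr9a, since the whole library held few UMIs of the other T lymphoid markers. The si:dkey-21e2 genes, of the class with the highest tnfrsf9b levels, summed to 0 to 0.0691 CPM in runx1-/- and 0.328 to 27.8 CPM in WT. This list and that of s1pr4 and spock3 were taken from earlier results of these data. The s1pr4 and spock3 genes summed to 0 CPM in runx1-/- at 2.5 dpf and 14.2 to 66.3 CPM in the later runx1-/- libraries, and to 2.84 to 9.72 CPM in WT. Neutrophil markers ranged from 17.8 to 1011 CPM in runx1-/- and from 73.4 to 188 CPM in WT, and macrophage markers from 2.35 to 4.44 and from 1.41 to 8.83 CPM. Epidermal markers summed to 683, 141, 34.8, 36.4 and 44.8 CPM in runx1-/- and to 216, 137, 614 and 1763 CPM in WT. The part of cells with endothelial or epidermal genes in these results was not tested. For the neutrophil, macrophage, T lymphoid, si:dkey-21e2 and s1pr4 and spock3 lists the same fit was made without cells that had their UMIs.

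In the 3699 HSPC-gated cells with no UMI of the myeloid, lymphoid, si:dkey-21e2 or s1pr4 and spock3 markers, tnfb was at 0, 5.95, 10.8, 7.10 and 2.93 CPM in runx1-/- and 0.477, 0.198, 0.451 and 0.250 CPM in WT. The log2 fold there was 3.70 for tnfb (SE 0.640, adjusted p 0.00337) and 3.41 for tnfrsf11a (SE 0.647, adjusted p 0.00588). Both were larger than in the whole gate, but few WT UMIs were left. Sums of several of these lists differed between genotypes in the gate, so the cells left can be unlike parts of it in runx1-/- and WT. WT at 6, 10 and 16 dpf held 1, 2 and 1 UMIs of tnfb and 0, 3 and 2 UMIs of tnfrsf11a. The size of both folds is therefore uncertain, with a counting interval of 4.04- to 1336-fold for tnfb at 6 dpf. For tnfrsf21 the log2 fold was 0.92 (SE 0.429, adjusted p 0.217). Too few UMIs of tnfrsf9b were left for a fit, at 0, 0, 0, 0 and 0.108 CPM in runx1-/- and 0, 0.198, 1.13 and 7.49 CPM in WT.

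On the later gene list, tnfsf18 in HSPC-gated cells was at 0 CPM in all 4 runx1-/- libraries and at 4.15, 9.73 and 6.82 CPM in WT at 6, 10 and 16 dpf. That is at least 2.83-fold lower at 6 dpf, 46.9-fold lower at 10 dpf, 18.3-fold lower in the bloodless and 29.5-fold lower in the recovered library, each against a floor of 3 counts per library (adjusted p 0.00508). With it, 5 of 14 members were called, 3 higher and 2 lower (all 12557 genes: 5.89% higher, 4.53% lower). In this fit the tnfrsf11a call (2.08, SE 0.373, adjusted p 0.0156) was lost without either library of 10 dpf and without the bloodless library.

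**Figure D5:**
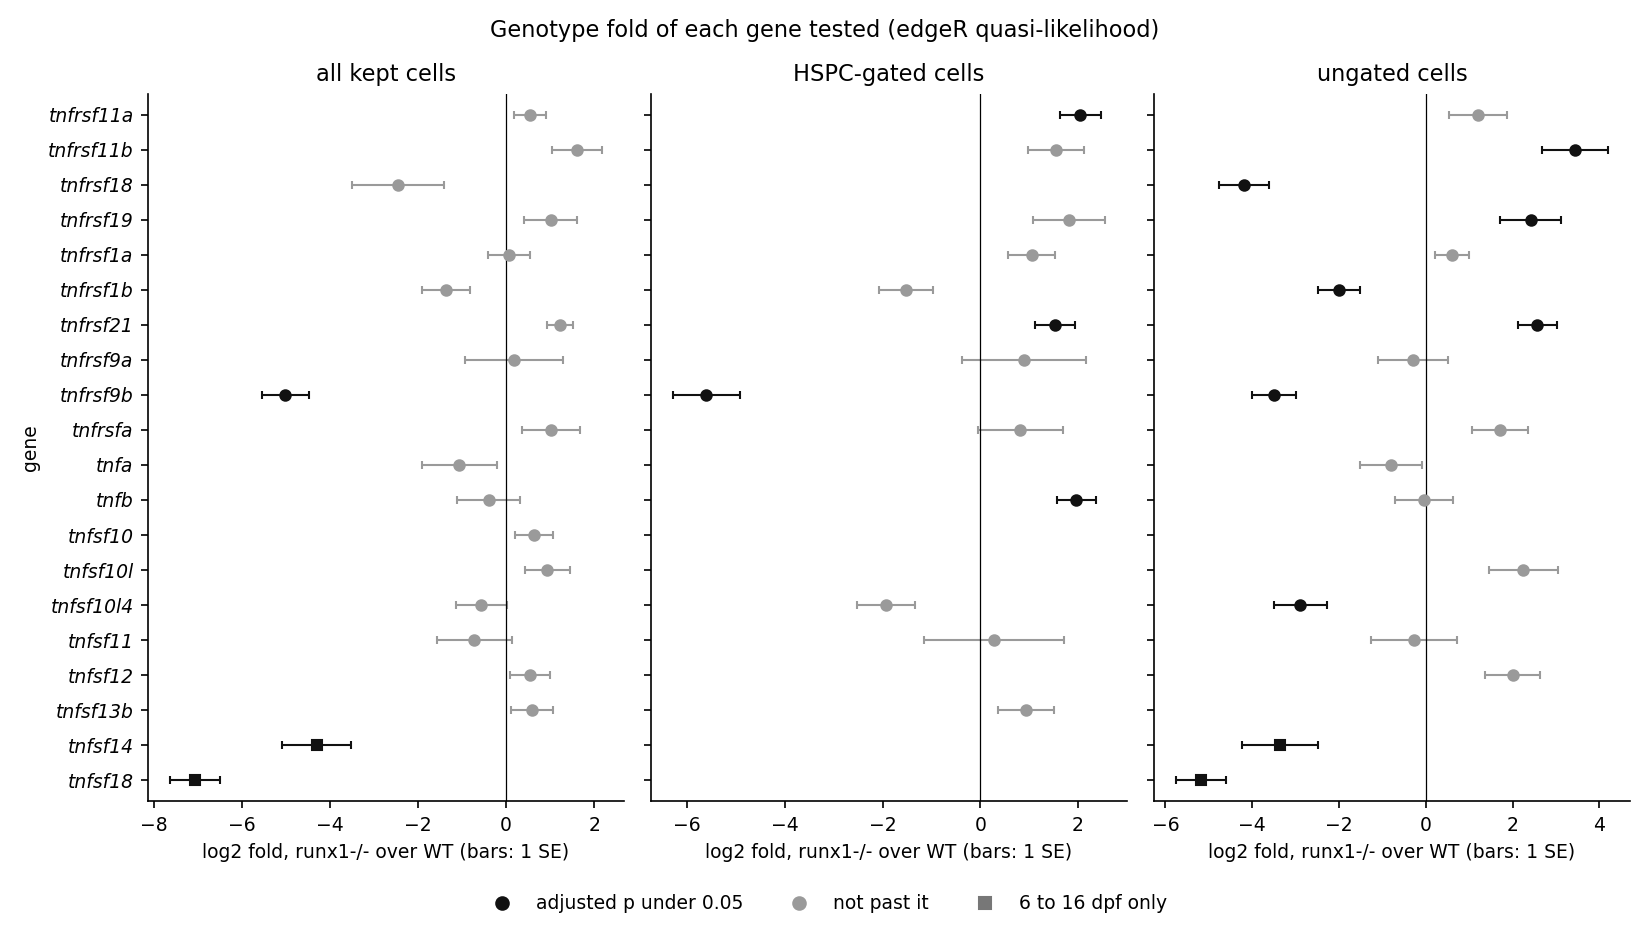
Log2 fold of runx1-/- over WT with 1 SE for each member tested that had UMIs in both genotypes, in all kept cells, HSPC-gated cells and ungated cells. A member with 0 UMIs in all libraries of a genotype is not drawn, also where it was called. Black marks have an adjusted p under 0.05 in the edgeR quasi-likelihood test, and squares are fits from 6 dpf on. In all 3 panels tnfrsf9b is called lower, while tnfrsf21 is called higher in the HSPC and ungated panels.

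Ungated cells, a class added after the data were seen, had 7 of 16 members called (all 12880 genes: 13.9% higher, 6.01% lower). The 4 lower members were tnfrsf18 (log2 fold -4.19, SE 0.565, adjusted p 0.00381), tnfrsf9b (-3.50, SE 0.511, adjusted p 0.00386), tnfsf10l4 (-2.89, SE 0.610, adjusted p 0.0127) and tnfrsf1b (-2.0, SE 0.478, adjusted p 0.0201). For tnfrsf9b the levels were 0, 0, 4.55, 6.56 and 13.1 CPM in runx1-/- and 2.19, 20.3, 38.5 and 52.2 CPM in WT, so the recovered library lay above WT at 2.5 dpf and below the later WT libraries. The tnfrsf1b call was lost without either library of 10 dpf (adjusted p 0.0527) and without the bloodless library (0.0658), and the tnfsf10l4 call without doublet removal (0.115).

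The 3 higher members in ungated cells were tnfrsf11b (3.44, SE 0.762, adjusted p 0.0153), tnfrsf21 (2.57, SE 0.443, adjusted p 0.00621) and tnfrsf19 (2.42, SE 0.705, adjusted p 0.0390). Levels of tnfrsf21 were 9.48, 56.1, 27.9, 22.6 and 9.85 CPM in runx1-/- and 1.86, 1.89, 6.46 and 2.07 CPM in WT, with all runx1-/- libraries above all WT libraries. The tnfrsf11b call was lost without WT at 16 dpf (2.61, adjusted p 0.0766), and that of tnfrsf19 without either library of 2.5 dpf, either of 6 dpf, WT at 16 dpf or the bloodless library. In these cells T lymphoid markers summed to 29.8 to 359 CPM in runx1-/- and 347 to 1565 CPM in WT. Most of that sum was ccr9a in WT at 10 and 16 dpf. In the same order endothelial markers summed to 34.5 to 90.4 and 5.23 to 8.58 CPM, and epidermal markers to 222 to 9974 and 260 to 2316 CPM. The si:dkey-21e2 genes summed to 0, 0, 233, 0.787 and 3.58 CPM in runx1-/- and 11, 962, 224 and 595 CPM in WT, and the s1pr4 and spock3 genes to 9.48 to 612 CPM in runx1-/- and 23.0 to 46.4 CPM in WT. Their part in these calls was not tested, and the si:dkey-21e2 and s1pr4 and spock3 lists were taken from earlier results of these data.

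On the later gene list 8 of 19 members were called in ungated cells, 2 higher and 6 lower (all 12967 genes: 11.1% higher, 4.45% lower), with tnfsf18 (-5.18, SE 0.580, adjusted p 0.00427) and tnfsf14 (-3.36, SE 0.877, adjusted p 0.0363) among the lower. The tnfsf14 call was lost without either runx1-/- library of 16 dpf.

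In neutrophil-gated cells tnfb was the member with the largest genotype difference in level. It was at 61.0, 1637 and 416 CPM in runx1-/- (10 dpf, bloodless, recovered) and at 23.3 and 11 CPM in WT (10 and 16 dpf). The bloodless library, with 83 cells, stood 149-fold above WT at 16 dpf (counting interval 119 to 189), the recovered library 38.0-fold above (30.5 to 47.8), and runx1-/- at 10 dpf 2.63-fold above WT (1.79 to 3.90). The log2 fold over these 5 libraries was 4.0 (SE 1.26), which did not pass (adjusted p 0.0956). WT neutrophils at 2.5 and 6 dpf, with no runx1-/- library of 10 cells beside them, had 90.1 and 60.2 CPM. Across 5 members tested 0 were called by edgeR, with 2 at an unadjusted p under 0.05 (all 6553 genes: 4.93% called).

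Macrophage-gated cells had a like pattern at 16 dpf and the opposite one at 2.5 dpf. There tnfb was at 96.1, 646 and 335 CPM in runx1-/- (2.5 dpf, bloodless, recovered) and at 1344 and 26.1 CPM in WT (2.5 and 16 dpf). That is 14.0-fold lower at 2.5 dpf (10.7 to 18.5), 24.7-fold higher in bloodless (18.0 to 34.8) and 12.8-fold higher in recovered animals (9.16 to 18.4), and the log2 fold was 0.25 (SE 2.60, adjusted p 0.985). Levels of tnfa lay on the same side of WT at each age, at 7.75, 94.9 and 48.2 CPM in runx1-/- and 73.0 and 2.61 CPM in WT (0.84, SE 1.78, adjusted p 0.925). For both the spread between ages was larger than the mean genotype difference.

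The cells of this gate also differed in their markers. Macrophage markers summed to 5949, 6340 and 5536 CPM in runx1-/- (2.5 dpf, bloodless, recovered) and to 7294, 1109, 944 and 909 CPM in WT (2.5, 6, 10, 16 dpf). The comparison at 16 dpf thus set runx1-/- cells with several times more of these markers against WT cells with less. In the gate at 16 dpf, T lymphoid markers summed to 902 and 1107 CPM (bloodless, recovered) against 2220 CPM in WT. Most of this WT sum was ccr9a. Epidermal markers summed to 99.7 and 418 CPM against 3056 CPM. The part of these differences in the tnfb and tnfa folds was not tested.

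Across the 9 members tested in macrophages 0 were called, as were 0 of all 4918 genes (0% called), with 2 members and 399 genes at an unadjusted p under 0.05. The 2 were tnfrsf11b (3.42, SE 1.31, adjusted p 0.602) and tnfrsf9b (-2.30, SE 0.692, adjusted p 0.590), in a fit of 5 libraries.

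In erythroid cells 0 of 4 members tested were called (2.17% of 10221 genes) and 0 of 8 in epidermal cells (0.789% of 6336 genes), with 0 members at an unadjusted p under 0.05 in either. DESeq2 called 0 members by genotype in neutrophil, macrophage, erythroid and epidermal cells. From 6 dpf on, on the later gene list, edgeR called 1 of 4 members in erythroid cells, tnfrsf11b (log2 fold 3.01, SE 0.840, adjusted p 0.0400), at 3.0, 1.43, 1.47 and 1.06 CPM in runx1-/- and 0, 0.237 and 0.182 CPM in WT. In that fit 8.87% of all 10214 genes were higher and 10.2% lower, and the runx1-/- value at 6 dpf came from 2 UMIs in 23 cells. No member passed the filter on low counts in mesenchyme or neurons.

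With genotype as a factor, 5 of 18 members changed with age over all cells, 2 higher and 3 lower with each doubling of age (all 18183 genes: 4.36% higher, 10.7% lower; median log2 fold -0.21 over members and 0.03 over all genes). The labels name no batch, so any batch that went with age cannot be told apart from age. The rising members were tnfrsf9b, by 1.55 per doubling (SE 0.318, adjusted p 0.00900), and tnfsf13b, by 0.94 (SE 0.274, adjusted p 0.0410). The falling members were tnfrsf19 (-1.54, SE 0.265, adjusted p 0.00405), tnfsf10l (-1.54, SE 0.316, adjusted p 0.00892) and tnfsf10 (-0.96, SE 0.281, adjusted p 0.0418).

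The receptor tnfrsf19 stood at 12.5, 10.6, 1.02, 2.09 and 0.594 CPM in runx1-/- and 6.69, 0.439, 1.53 and 0.535 CPM in WT, and tnfsf10l at 9.26, 9.58, 0.390, 1.92 and 0.338 CPM in runx1-/- and 3.77, 1.13, 0.390 and 0.510 CPM in WT. High values lay at 2.5 dpf in both genotypes and at 6 dpf in runx1-/-. Epidermal-gated cells, in which both were called higher, numbered 637, 172, 5, 51 and 36 in runx1-/- and 537, 176, 7 and 20 in WT. Levels of tnfsf13b were 0.584, 2.54, 4.92, 5.16 and 9.35 CPM in runx1-/- and 0.585, 1.26, 3.05 and 2.18 CPM in WT, and erythroid-gated cells numbered 118, 23, 607, 905 and 3220 in runx1-/- and 59, 480, 228 and 463 in WT. The part of these cells in the age slopes was not tested.

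Without the 2 libraries of 2.5 dpf, edgeR called 0 of the same 18 members by age on the gene list shared by all ages, with 5 at an unadjusted p under 0.05, and DESeq2 was not run without them. The slopes of tnfrsf9b (1.33, SE 0.483, adjusted p 0.153), tnfrsf19 (-1.68, SE 0.596, adjusted p 0.144) and tnfsf10l (-1.92, SE 0.591, adjusted p 0.106) kept about their size with larger errors. Those of tnfsf13b (0.58, SE 0.467, adjusted p 0.506) and tnfsf10 (-0.01, SE 0.577, adjusted p 0.994) were smaller. Without WT at 2.5 dpf alone tnfrsf9b had a slope of 1.26 (adjusted p 0.0621), and without runx1-/- at 2.5 dpf alone the calls of tnfsf10l, tnfsf13b and tnfsf10 were lost.

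The remaining members were not called by edgeR for genotype or age over all cells. Among them DESeq2 called tnfrsf11b by genotype, as given above, and tnfrsf9a, tnfsf10l4 and tnfsf12 by age. The TNF receptors were at 2.86 to 18.2 CPM in runx1-/- and 2.77 to 10.7 CPM in WT for tnfrsf1a, and at 0.804 to 1.67 and 1.06 to 3.55 CPM for tnfrsf1b. The RANK receptor tnfrsf11a had 2.23 to 6.42 CPM in runx1-/- and 1.45 to 3.87 CPM in WT, higher in 5 of 5 libraries within their ages (0.54, SE 0.356, adjusted p 0.432), its decoy tnfrsf11b 2.88 to 9.61 and 0.274 to 3.44 CPM, and the ligand tnfsf11 0 to 1.37 and 0.146 to 0.599 CPM. Among the inflammatory ligands tnfa had 0 to 3.90 CPM in runx1-/- and 0.302 to 2.05 CPM in WT, and tnfb 3.91 to 43.6 and 4.92 to 30.8 CPM. The TWEAK gene tnfsf12 had 0.300 to 4.30 and 0.319 to 2.49 CPM, tnfsf10l4 0.734 to 7.93 and 1.74 to 4.05 CPM, and the receptor tnfrsfa 0.746 to 7.43 and 0.247 to 1.30 CPM.

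Downstream, 62 genes of TNF receptor signalling were listed, of which 60 were in both gene lists. Over all cells, 1 of 58 tested fell with genotype and 0 rose, that is 1.72% called, beside 0.819% of all genes lower and 0.555% higher. This was traf1, an adaptor that binds CD137-like receptors in mammals, at 0.417, 2.35, 5.73, 6.00 and 3.61 CPM in runx1-/- and 3.51, 7.52, 18.2 and 14.3 CPM in WT (log2 fold -2.32, SE 0.309, adjusted p 0.0140). Each runx1-/- library was below WT of its age.

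In HSPC-gated cells 3 of 52 pathway genes fell, traf1 (-1.65, SE 0.314, adjusted p 0.00744), the deubiquitinase gene cyldl (-1.69, SE 0.450, adjusted p 0.0361) and the NF-kB inhibitor gene nfkbie (-1.13, SE 0.304, adjusted p 0.0376), and 1 rose, the adaptor gene traf4a (1.13, SE 0.322, adjusted p 0.0485). These 4 are 7.69% of the pathway genes tested there, where 4.35% of all genes were lower and 5.96% higher, so the share is near that of all genes. Ungated cells had 7 of 53 lower, among them traf1 (-2.08, SE 0.566, adjusted p 0.0320) and the NF-kB subunit gene rel (-1.66, SE 0.320, adjusted p 0.00927), and 2 higher, traf4a (1.09, SE 0.321, adjusted p 0.0397) and nfkbib (1.91, SE 0.458, adjusted p 0.0202). These 9 are 17% of those tested, where 6.01% of all genes were lower and 13.9% higher. With age, traf1 (0.87, SE 0.254, adjusted p 0.0418) and cyldl (1.20, SE 0.361, adjusted p 0.0474) rose per doubling, and rela (-1.27, SE 0.240, adjusted p 0.00617) and tbk1 (-0.56, SE 0.156, adjusted p 0.0351) fell, 6.90% of 58, beside 4.36% of all genes higher and 10.7% lower. The T lymphoid marker sums given above, largely ccr9a in the libraries where it was given apart, moved with genotype in the same cells. Their part in the traf1 result was not tested.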

How the data were processed

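Single-cell RNA was counted in 9 libraries. The deposited files hold UMI counts per gene and barcode, not normalized; the authors made them with Cell Ranger 2.0.2 on GRCz10, per the submitters' processing notes, while 5 of 9 file headers give software version 3.1.0. The gene lists differed (26586 genes at 2.5 dpf, 26573 later), and fits over all ages used the shared identifiers. How the authors chose cells is not given in the sources used here.

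Of 30917 barcodes, 29994 had at least 500 UMIs, 200 genes and at most 20% mitochondrial UMIs. Scrublet (scanpy 1.11.5) marked 249 automatically, so the top-scoring 0.8% per 1000 cells (1119) were removed. Cells were gated on 133 markers of 17 classes, and UMI counts summed per library and class of at least 10 cells. Sums were fitted in edgeR 4.0.16 (R 4.3.3) with TMM, filterByExpr and the quasi-likelihood test, Benjamini-Hochberg adjusted over all genes, threshold 0.05. Genotype fits had age as a factor, age fits genotype, and class fits the library as a block. The code was tested on simulated counts. Intervals are exact at 95%. Alternatives included DESeq2 1.42.0, and other gates, filters and libraries. Members with at least 100 UMIs, and any called, were described. Members, pathway list and markers were chosen with earlier results of these data known.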

Additional observations from a re-analysis of the deposited data

How the results depend on the processing

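The 109 calls on members were recomputed under 1975 alternatives in all: 1784 kept their direction and side of the threshold, 189 missed the threshold, and 2 changed sign. Those 2 were tnfrsf9a in thrombocytes with a gate of 4 markers (0.41) and tnfrsf11b in neutrophils with a gate of 2 markers (0.44). The genotype call of tnfrsf9b in the fit over all ages held in every alternative that tested it. These were 17 over all cells, 18 in HSPC-gated cells (log2 folds -7.73 to -4.80) and 18 in ungated cells (-4.09 to -3.13). In HSPC-gated cells with no UMI of other blood lists tnfrsf9b could not be tested, since too few of its UMIs were left. The genotype call of tnfrsf11a in HSPC-gated cells held in 19.

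Counts of called members moved more. Over all cells, genotype called 1 member, 3 with DESeq2, 4 without 2.5 dpf on the later gene list, 2 without 2.5 dpf on the shared list, and 1 to 2 with a library left out (2 without either library of 2.5 dpf). Age called 5, 8 with DESeq2, 0 without 2.5 dpf on either gene list, and 2 to 6 with a library left out (2 without WT and 3 without runx1-/- at 2.5 dpf). Genotype within classes called 4, 12 with no filter on low counts, 7 with a gate of 2 markers, 2 with a gate of 4, 2 in HSPC-gated cells with no UMI of other blood lists, and 2 to 8 with a library left out (2 without either library of 10 dpf, 8 without WT at 16 dpf). Classes called 75, 48 against other blood classes only, and 63 to 77 with a library left out. In ungated cells genotype called 7, 3 with a gate of 2 markers, and 2 to 7 with a library left out (4 without either library of 10 dpf, 2 without WT at 16 dpf). On the later gene list it called 4 over all cells, 2 without shared barcodes, and 1 to 5 with a library left out (1 without bloodless, 2 without recovered or either library of 10 dpf). There HSPC-gated cells gave 5, 3 with a gate of 4 markers, 2 with no UMI of other blood lists, and 2 to 8 with a library left out (2 without either library of 10 dpf, 3 without bloodless, 8 without WT at 16 dpf). Ungated cells gave 8, 5 with a gate of 2 markers, and 2 to 7 with a library left out (2 without WT at 16 dpf, 4 without bloodless). The cause was not tested. The settings without 2.5 dpf, with the later gene list, ungated cells, shared barcodes, all other kept cells, and HSPC-gated cells with no UMI of other blood lists were chosen after seeing the data.

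No paired analysis was possible because the labels give no replicate numbers and each group is 1 library; age, a factor in the genotype fits, is what libraries of both genotypes share. With 1 library per group, genotype within an age has counting error only. The lowest UMI count of a deposited barcode was 2907 to 2915 at 2.5 dpf and 500 to 505 later, so the floor on depth differs with age.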

Other observations

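Genes of the same families whose names the rule does not take were looked up from a list of 15, of which 12 were found and 9 had at least 100 UMIs over all kept cells. The receptor gene hdr, named in zebrafish as a hematopoietic death receptor, had 55029 UMIs, more than all 22 members together (40442). The receptor genes relt, fas and cd40 had 3437, 2019 and 1287 UMIs, and the ligand genes faslg, lta and eda 718, 417 and 311. The nerve growth factor receptor copies ngfrb and ngfra had 418 and 319 UMIs. Near the limit of detection were the T cell costimulation genes cd27 (88 UMIs) and cd40lg (85) and the ectodermal receptor gene edar (37). Cells whose barcode occurred in more than 1 library numbered 224, with 210 member UMIs, 15 of them of tnfrsf9b.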
